A study of Citrus reticulata and Citrus x clementina and Citrus x paradisi with 16 samples.

Results

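The Rubisco small subunit transcript was followed in citrus ovules as 2 assembled loci, 1 in each of the 2 expression tables of the series. In the mandarin table it was XLOC_014803 (reference gene Ciclev10012893m.g), 1 of 20373 loci. In the pummelo and grapefruit table it was XLOC_012811 (reference gene Cs6g18680), 1 of 22595 loci. Both were taken because the study annotated the gene as the small subunit and placed it on its list of genes differing between cultivars in both pairs. That list was selected on the read counts of these same libraries, so the loci were chosen by their differences between cultivars. These differences are therefore given as a description, without a test.

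Ribulose-1,5-bisphosphate carboxylase/oxygenase (Rubisco) fixes CO2 in the Calvin cycle of the chloroplast. Its large subunit is encoded by the plastid genome, and its small subunit by a family of nuclear genes whose products are imported into the plastid. In green tissue the small subunit is among the most abundant transcripts and its genes respond to light, whereas an ovule is a small reproductive organ enclosed in the ovary.

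The study sequenced mRNA from ovules of 4 cultivars. In the polyembryonic 'Huagan No.2' Ponkan (PK, Citrus reticulata) and 'Cocktail' grapefruit (GF), cells of the maternal nucellus also form embryos. The monoembryonic partner of PK was 'Nour' clementine (CM), and that of GF was 'Huanong red' pummelo (PU), giving the pairs PK/CM and GF/PU. Libraries represent the stage preceding nucellar embryo initiation (pre-NEI) and its onset (NEI). PK and CM were taken at 3 and 7 days after flowering (DAF), and GF and PU at 0 and 3 DAF. In CM and PU the stage names stand only for those days. All cultivars were hand-pollinated with trifoliate orange, and ovules came from several trees per cultivar. There were 16 libraries, 2 for each of 8 groups, and the study states that the replicates were ovules of consecutive years.

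Total locus counts, in megacounts (M), lay between 17.9 and 24.9 M for the mandarin libraries and between 11.8 and 34.2 M for the others. The factors of the trimmed mean of M-values (TMM) scaling ran from 0.756 to 1.19 and from 0.863 to 1.20. The value of 0.756 belonged to CM at NEI replicate 1 and raised its normalised values relative to unscaled ones. With 1 cultivar of each kind per pair, embryony and the other traits in which the cultivars differ cannot be told apart. In whole ovules, fewer cells of a type and less RNA per cell cannot be told apart either. Ovule, leaf and pollen marker lists were not checked here.

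XLOC_014803 lies on the minus strand of scaffold 6 of the clementine genome, from 23175697 to 23177122. Its single assembled transcript is 859 bp long with a GC content of 48.2%, and 567 bp of the span of 1426 bp lie outside that transcript. XLOC_012811 lies on the minus strand of chromosome 6 of the sweet orange genome, from 18696525 to 18698529. Its single transcript is 967 bp long with a GC content of 47.3%, and 1038 bp of its span of 2005 bp lie outside it. Neither locus overlapped another assembled locus. The nearest ones were 1046 and 15862 bp away in the clementine genome and 9713 and 16530 bp away in the sweet orange genome. With 1 transcript each, the loci had no isoforms to compare. Other copies of the small subunit family were not identified here, and reads shared with such copies could be assigned to either.

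In PK the level of XLOC_014803 was low before initiation. Replicates 1 and 2 of PK had 428 and 1099 counts at pre-NEI, or 18.7 and 51.6 normalised counts-per-million (CPM). At NEI they had 695 and 2170 counts, or 40.0 and 105.7 normalised CPM. Replicate 2 was above replicate 1 at both stages, and the range of PK at NEI overlapped that at pre-NEI.

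In CM the same locus was higher at pre-NEI than at NEI. Replicates 1 and 2 had 2622 and 7017 counts at pre-NEI, or 145.7 and 308.3 normalised CPM. At NEI they had 1620 and 2782 counts, or 110.1 and 129.3 normalised CPM. These ranges did not overlap after TMM scaling, but the unscaled values did, at 133 and 282 CPM before and 83.2 and 154 CPM at NEI.

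In GF the locus XLOC_012811 was lower at NEI than before it. Replicates 1 and 2 of GF had 1578 and 3784 counts at pre-NEI, or 87.5 and 119 normalised CPM, and 888 and 497 counts at NEI, or 53.3 and 38.7 normalised CPM. In PU they had 4684 and 3616 counts at pre-NEI, or 254 and 290 normalised CPM. At NEI PU had 2198 and 1534 counts, or 111 and 103 normalised CPM. Within each cultivar of this pair the 2 stages did not overlap. The smallest count of the 16 libraries, 428 in PK at pre-NEI replicate 1, has a Poisson 95% interval of 388 to 471.

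**Figure D1:**
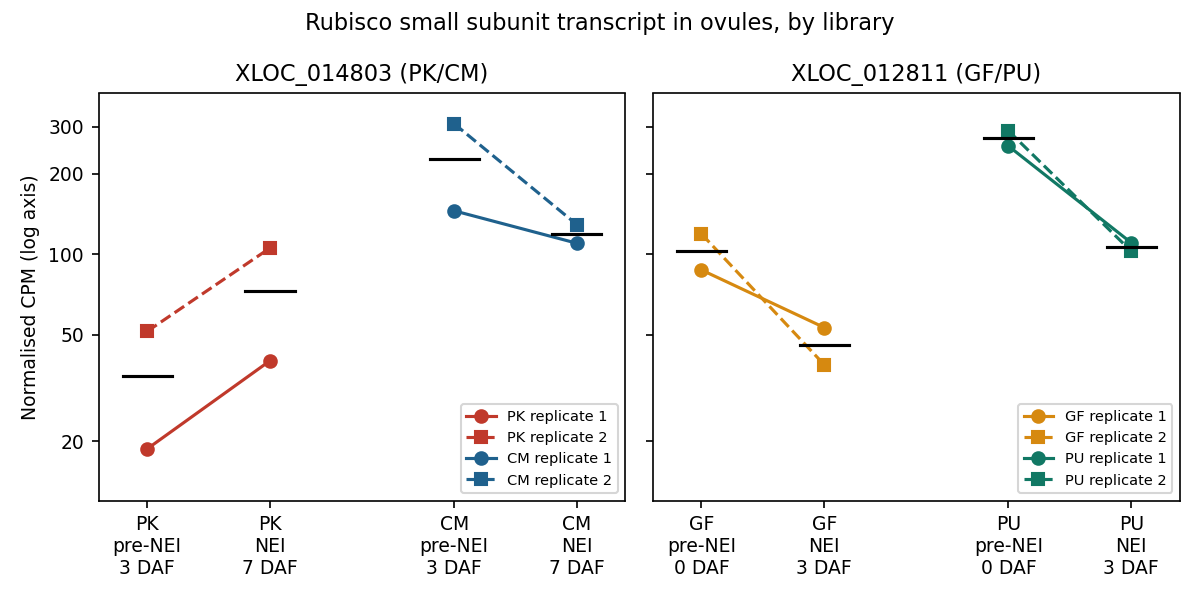
Normalised CPM (log axis) of the Rubisco small subunit in each library, with PK/CM in the left panel and GF/PU in the right, by cultivar, stage and days after flowering (DAF). Circles and solid lines are replicate 1, squares and dashed lines replicate 2, and black bars are means of 2 libraries. In PK the NEI libraries lie above the pre-NEI library of the same number (40.0 against 18.7 and 105.7 against 51.6), and in CM, GF and PU they lie below.

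Ordered by mean normalised CPM, the mandarin groups were PK at pre-NEI with 35.2 ± 23.2 (SD, n = 2), PK at NEI with 72.9 ± 46.4, CM at NEI with 120 ± 13.5 and CM at pre-NEI with 227 ± 115. Neighbouring groups in this order differed by less than the larger SD of the 2, apart from PK and CM at NEI (a difference just above 1 SD). In the other pair the order was GF at NEI with 46.0 ± 10.3, GF at pre-NEI with 103 ± 22.5, PU at NEI with 107 ± 5.54 and PU at pre-NEI with 272 ± 25.2. GF at pre-NEI and PU at NEI overlapped, and the other neighbours were separated by more than their SDs. So the polyembryonic cultivar was below its partner at each stage in both pairs, while GF before initiation was at the level PU had at NEI.

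Levels can be set against other genes only per transcript length. By the authors' pooled FPKM, which scales for length and depth, XLOC_014803 had 44.4 in PK at pre-NEI and ranked 3349 of 19894 loci with transcripts of at least 300 bp. In PK at NEI it had 91.6 (rank 1651), in CM at NEI 149 (rank 919) and in CM at pre-NEI 290 FPKM (rank 397). XLOC_012811 had 53.1 FPKM in GF at NEI (rank 3308 of 21501), 117 in GF at pre-NEI (1250), 120 in PU at NEI (1101) and 316 in PU at pre-NEI (325). In each pair the highest rank was that of the monoembryonic cultivar at pre-NEI.

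The comparison of polyembryonic with monoembryonic ovules asked which transcripts differ before and at initiation. At pre-NEI the locus was lower in PK than in CM by 6.46-fold (log2 fold change -2.69 ± 0.68, SE, 2 libraries per group). Taken within replicate numbers, PK was 7.77-fold lower for replicate 1 and 5.98-fold lower for replicate 2, and the 4 libraries did not overlap. Of all 18749 loci tested in this comparison, 3.6% were called different, a comparison that chose the locus. Here and below, a call required an adjusted p (Benjamini-Hochberg) under 0.05 in edgeR's quasi-likelihood test together with a log2 fold change of 1 or more in either direction.

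At NEI the difference between PK and CM was smaller, at -0.72 ± 0.64. Within replicate numbers PK was 2.75-fold lower for replicate 1 and 1.22-fold lower for replicate 2. The highest PK library (105.7) was just below the lowest CM library (110.1) after TMM scaling, whereas the unscaled values overlapped, with 36.9 and 116 CPM in PK and 83.2 and 154 CPM in CM. The share of loci called in this comparison was 1.64%. Without PK at NEI replicate 1 the value was -0.17, and without replicate 2 it was -1.58, so the size of this difference depended on single libraries.

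In GF the locus was lower than in PU by 2.63-fold at pre-NEI (log2 -1.40 ± 0.27) and by 2.32-fold at NEI (-1.21 ± 0.27). Within replicate numbers the differences were 2.91- and 2.43-fold at pre-NEI and 2.08- and 2.66-fold at NEI, with no overlap at either stage. The number was not taken to pair libraries in GF/PU, so these ratios only list the values. The share of loci called was 6.57% at pre-NEI and 21.7% at NEI. The study's list was drawn from the cultivar comparisons of both stages, and no test is given for either.

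The stage changes within a cultivar share their libraries with those comparisons and are also described without a test. In PK the level at NEI was above that at pre-NEI by 1.05 ± 0.64 on the log2 scale, with ratios of 2.14 and 2.05 for replicates 1 and 2. In CM it was below, by -0.92 ± 0.64, with ratios of 0.756 and 0.419. The direction within each replicate number was the same without TMM scaling, with unscaled ratios of 1.79 and 1.89 in PK and 0.626 and 0.547 in CM. Without CM at pre-NEI replicate 2 the value of CM was -0.25. That of PK was 0.50 without its pre-NEI replicate 1 and 0.19 without its NEI replicate 2, and 1.96 without its pre-NEI replicate 2. In GF and PU the level at NEI was below that at pre-NEI by -1.17 ± 0.27 and -1.35 ± 0.27. GF was 1.64- and 3.09-fold lower for replicates 1 and 2, and PU 2.30- and 2.82-fold lower, although the number was not taken to pair libraries in GF/PU.

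The mean of the stage changes of both cultivars of a pair does not enter the difference between cultivars, although it rests on the same libraries and on the same estimate of spread. It was the one quantity tested. Choosing a locus from a list of differing genes favours a small estimated spread. The p-values of this mean are therefore not independent of the choice of the locus and may be too low. In GF/PU the transcript fell from pre-NEI to NEI by 1.26 ± 0.19 on the log2 scale (-1.26, 95% interval -1.71 to -0.81), which is 2.39-fold lower (edgeR quasi-likelihood adjusted p 0.0329). In both GF and PU, each NEI library was below each pre-NEI library. Of 19943 loci, 298 were called lower (1.49%) and 143 higher (0.717%), or 2.21% in either direction, and 5.55% of all loci had a lower log2 fold change than this one.

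The call in GF/PU was not robust to leaving out libraries. It remained without PU at pre-NEI replicate 1 (adjusted p 0.0340) and was lost without any 1 of the other 7 libraries (adjusted p 0.0569 to 0.132), with log2 values of -1.37 to -1.14 over all 8. It was also lost in edgeR's exact test with the stage as the only group (-1.30, adjusted p 0.232). It was kept by DESeq2 (adjusted p 4.24e-06) and with the replicate number as a block (adjusted p 0.0190).

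In PK/CM the averaged stage change was 0.06 ± 0.45 (95% interval -0.98 to 1.11, unadjusted p 0.890, adjusted p 0.997 by edgeR's quasi-likelihood test). As a ratio of NEI to pre-NEI the interval ran from 0.506 to 2.16. No locus of 18749 was called (0%), with 993 at an unadjusted p under 0.05, 69 called by DESeq2 and 6 by the exact test. This mean combined a positive value in PK with a negative one in CM, and its sign turned negative without CM at pre-NEI replicate 1 (-0.16), PK at pre-NEI replicate 1 (-0.21) or PK at NEI replicate 2 (-0.37). Whether the averaged stage change differed between PK/CM and GF/PU was not tested, since the pairs were aligned to different genomes and sampled on different days.

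**Figure D2:**
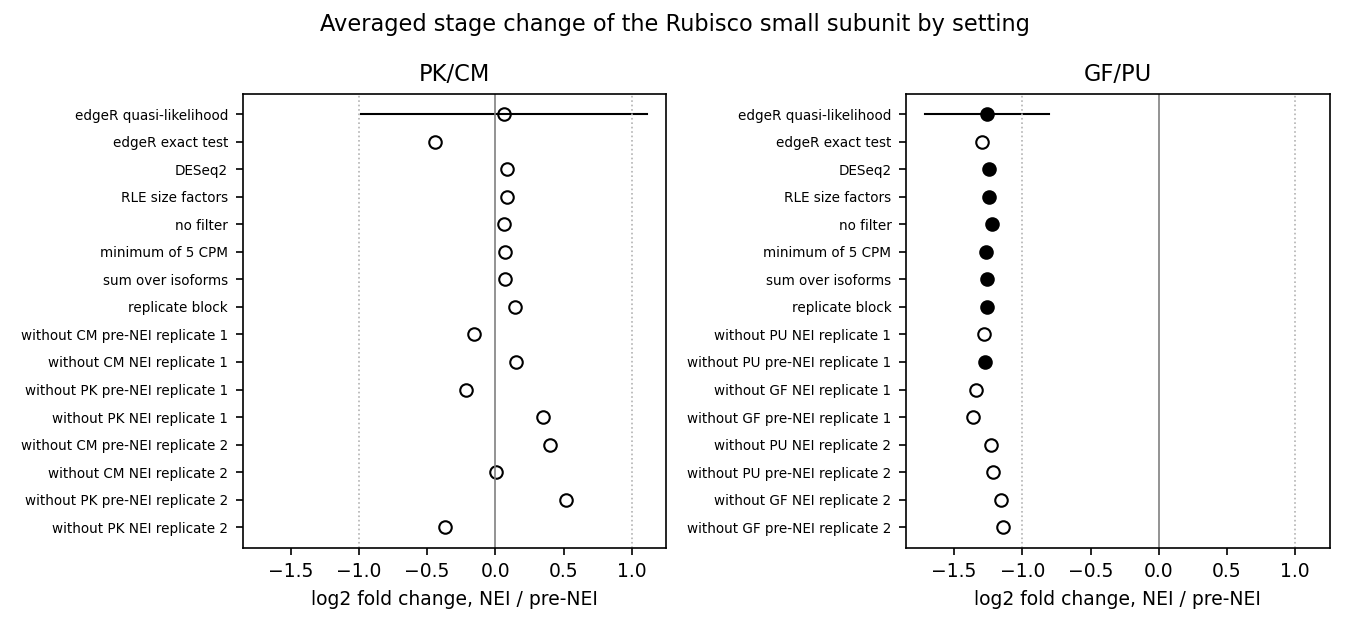
Stage change (log2 fold change, NEI over pre-NEI) of the Rubisco small subunit averaged over both cultivars of a pair, on the horizontal axis, for each processing setting or left-out library on the vertical axis. Filled circles were called (adjusted p under 0.05 and a value past either dotted line), open circles were not, and the bar is the 95% interval. In GF/PU the values stay between -1.37 and -1.14, and in PK/CM they lie on both sides of 0.

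The replicates of the mandarins differed strongly at this locus. Replicate 2 exceeded replicate 1 by 2.75 times in PK at pre-NEI, 2.64 times in PK at NEI, 2.12 times in CM at pre-NEI and 1.17 times in CM at NEI. The last ratio was 1.85 without TMM scaling. In PK at pre-NEI, 99.6% of tested loci had a lower signed shift from replicate 1 to 2 on the log2(normalised CPM + 1) scale. The share was 94.3% in PK at NEI, 94.1% in CM at pre-NEI and 59.9% in CM at NEI. For the mean shift over the 4 groups, equal to 2.03 times on the same log2 scale, it was 97.1%. In GF/PU the same mean was 1.01 times (52.5% of loci lower), with group ratios of 0.726 to 1.36. Loci that fell from replicate 1 to 2 count as lower, so these shares do not rank the size of a shift regardless of direction. As the replicates came from different seasons, the year and other differences between replicates cannot be told apart, and the sources do not say which number is which year.

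**Figure D3:**
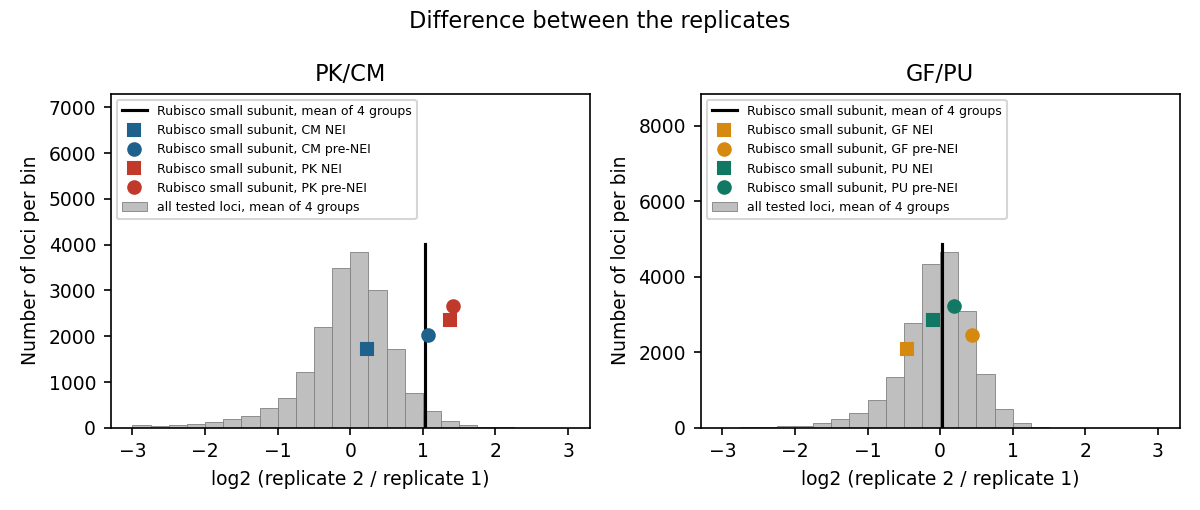
Number of tested loci (vertical axis) by log2 ratio of replicate 2 to replicate 1 (1 added to each CPM) averaged over the 4 groups of a pair (grey bars, with values past 3 put in the outermost bins). The black line marks the Rubisco small subunit, and points mark its ratio in each group (circles pre-NEI, squares NEI) at arbitrary heights. In PK/CM the line stands at 2.03 times, above 97.1% of loci, and in GF/PU at 1.01 times.

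The span of levels was wide beside loci of similar mean normalised CPM, a measure not scaled for transcript length. Over the 8 mandarin libraries the highest normalised CPM was 16.4 times the lowest, and 3.49% of the 3466 loci within 2-fold of its mean level had a larger ratio (median 2.28). In GF/PU the ratio was 7.50, exceeded by 12.1% of 3440 loci (median 2.80). The locus was chosen for differing between groups, so a wide span is part of the choice.

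Loci with the most similar profile were ranked by the Pearson correlation of log2(normalised CPM + 1) over the 8 libraries of a pair. These libraries differ in depth, year and cultivar, and the loci compared have these differences in common. In PK/CM the 5 highest were XLOC_006052 (Ciclev10022800m.g, r = 0.990), XLOC_000719 (Ciclev10009830m.g), XLOC_014929 (Ciclev10013860m.g), XLOC_009897 (Ciclev10030657m.g) and XLOC_009204 (r = 0.984), none of which has a description in the sources used here. Their normalised CPM, not scaled for length, differed widely, from at most 7.69 for XLOC_009897 to at most 189 for XLOC_014929. By group mean XLOC_014929, like the small subunit, was lowest in PK at pre-NEI (7.36 and 15.6 normalised CPM) and highest in CM at pre-NEI replicate 2 (189). In all, 211 loci had r above 0.9 in PK/CM.

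In GF/PU the most similar locus was XLOC_000368 (Cs1g13270, r = 0.983), which the study annotated as a probable disease resistance protein. It had 19.1 and 26.1 normalised CPM in PU at pre-NEI, 5.69 and 4.29 in PU at NEI, 2.11 and 3.31 in GF at pre-NEI and 0.360 and 0.233 in GF at NEI. By mean its groups stood in the same order as those of the small subunit, at a far lower normalised CPM, which is not scaled for length. The next 4 were XLOC_008623, XLOC_000405, XLOC_016092 and XLOC_013910 (r = 0.964), and 87 loci had r above 0.9. XLOC_016092 was at 0 counts in 1 library and at most at 1.36 normalised CPM.

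**Figure D4:**
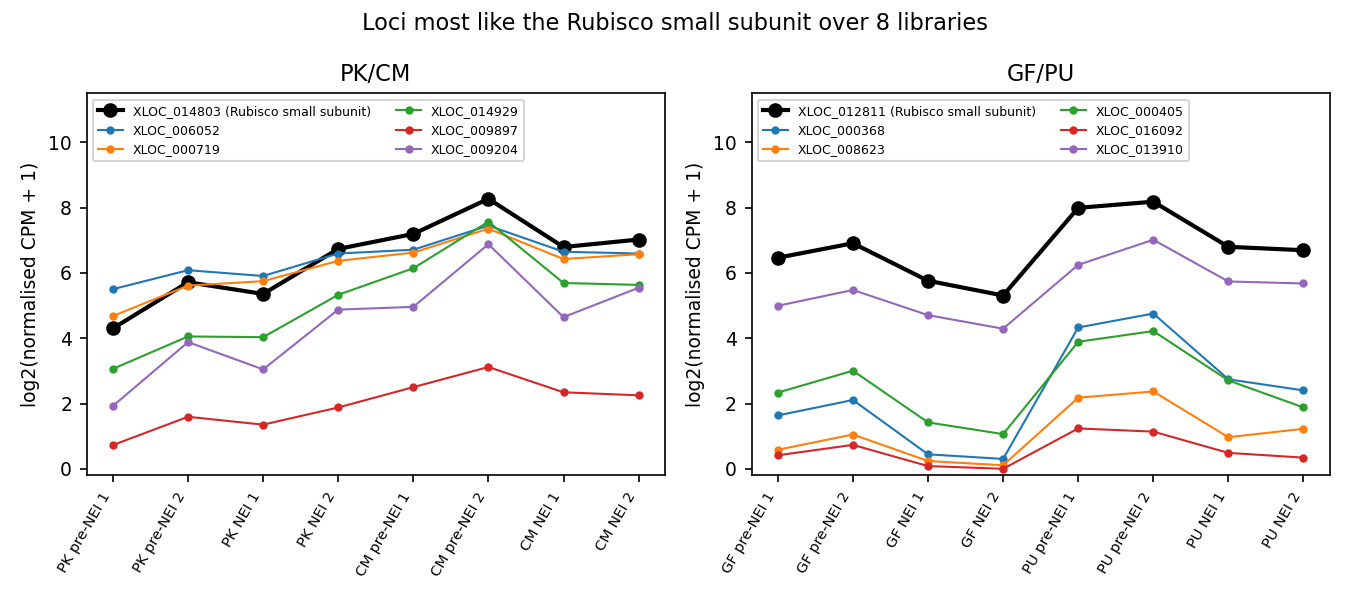
Level, as log2(normalised CPM + 1), of the Rubisco small subunit (thick black line) and of the 5 loci with the most similar profile in each library of PK/CM (left) and GF/PU (right). The lines differ in height and in steepness, with r of 0.984 to 0.990 in PK/CM and 0.964 to 0.983 in GF/PU over 8 libraries.

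The 3 assembled loci on each side of the small subunit did not share its profile. Their correlations with it over the 8 libraries ran from -0.22 to 0.48 in PK/CM and from -0.56 to -0.03 in GF/PU. In PK/CM 0 of 6 neighbours were called between cultivars (0 at an unadjusted p under 0.05, 0 under DESeq2 or the exact test), beside 3.6% of all loci at pre-NEI and 1.64% at NEI. DESeq2 called 2428 and 1085 of all 18749 loci in these comparisons, and the exact test 1546 and 808. Between stages the quasi-likelihood test called 0 of 6 (1 at an unadjusted p under 0.05 in CM), beside 0% of all loci. In CM 1 locus, XLOC_014021, was called under DESeq2 and under the exact test, which called 389 and 140 of all loci there. In GF/PU 1 of 6 was called (16.7%, beside 21.7% of all loci), XLOC_012810 (Cs6g18650), which was higher in GF than in PU at NEI (log2 2.77, edgeR quasi-likelihood adjusted p 0.00853, and 0.0600 without PU at NEI replicate 2). Its direction was opposite to that of the small subunit 22030 bp away. DESeq2 and the exact test each called 2 of 6 at NEI, beside 5894 and 5259 of all 19943 loci. DESeq2 also called XLOC_012063 for the averaged stage change (log2 1.86, adjusted p 0.0255), beside 1768 of all loci.

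Other plastid genes were followed for 11 predicted microRNA targets, a selection from those that the study described as plastid or chloroplast proteins. Chloroplast enzymes of amino acid synthesis, transporters and kinases among those targets were not taken. In PK/CM these were a chlorophyll a-b binding protein (Ciclev10006006m.g), part of the light-harvesting antenna, and photosystem I subunit F (Ciclev10016540m.g). The chlorophyll a-b binding transcript had 47.4 and 40.7 normalised CPM in PK at pre-NEI, 23.4 and 53.9 in PK at NEI, 13.7 and 11.03 in CM at pre-NEI and 40.8 and 26.6 in CM at NEI. Before initiation its 2 PK libraries were thus above its 2 CM libraries, opposite to the small subunit (log2 1.84, adjusted p 0.0742 by the quasi-likelihood test, and 0.0391 with the replicate number as a block). Photosystem I subunit F had 5.22 to 20.6 normalised CPM in CM and 7.71 to 57.6 in PK. Of these 2 genes, 0 were called in any comparison by the quasi-likelihood test, beside 3.6% and 1.64% of all loci between cultivars and 0% between stages. The chlorophyll a-b binding gene was called at pre-NEI under DESeq2 or the exact test, which called 2428 and 1546 of all 18749 loci there. The values had medians of 0.96 at pre-NEI and 0.50 at NEI for PK over CM, beside 0.0042 and 0.016 over all loci.

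In GF/PU the list held 9 genes, of plastid protein import, RNA splicing, translation, redox control, lipid and starch synthesis. At pre-NEI 0 of 9 were called between GF and PU by edgeR's quasi-likelihood test, by DESeq2 or by the exact test, with 0 at an unadjusted p under 0.05. Of all loci, 6.57% were called by the quasi-likelihood test and 23.7% had that unadjusted p. DESeq2 called 2619 and the exact test 2174 of 19943 loci. The median of the 9 was -0.03, beside -0.0029 over all loci, while the small subunit stood at -1.40. As the small subunit was chosen for differing between cultivars, this distance is part of the choice. At NEI 3 of 9 were called (33.3%, beside 21.7% of all loci), 2 higher and 1 lower (12% and 9.79% of all loci). The median was 0.38, beside 0.056 over all loci. The thylakoidal processing peptidase (Cs3g24090), which trims proteins entering the thylakoid, had 384 and 428 normalised CPM in GF and 223 and 129 in PU (log2 1.20, adjusted p 0.0411). DGDG synthase 2 (orange1.1t00318), an enzyme of galactolipid synthesis, had 75.1 and 64.0 in GF and 36.8 and 25.4 in PU (1.16, adjusted p 0.0227), at a locus that carries a second reference gene. Thioredoxin M3 (Cs8g06060), a redox protein, had 8.22 and 5.76 in GF and 35.4 and 50.9 in PU (-2.62, adjusted p 0.0228). For DGDG synthase 2 and thioredoxin M3 the study had already given log2 fold changes at NEI in the same directions. Those values came from its own mRNA sequencing, so they are not separate evidence. These 3 calls were lost without GF at NEI replicate 1 or 2 or PU at NEI replicate 2 (adjusted p 0.0646 to 0.170), and that of the peptidase also without PU at pre-NEI replicate 1 or GF at pre-NEI replicate 1 or 2 (0.0564 to 0.0640), without the filter on low counts (0.0553) and with only the 4 NEI libraries in the fit (0.0882).

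For the averaged stage change 0 of the 9 genes were called by the quasi-likelihood test, DESeq2 or the exact test, with 3 at an unadjusted p under 0.05, beside 2.21% of all loci called and 24.4% at that unadjusted p. For the averaged change DESeq2 called 1768 and the exact test 306 of all 19943 loci. Within cultivars 0 of the 9 were called by the quasi-likelihood test, beside 0% of all loci. Thioredoxin M3 was called in PU under DESeq2 and the exact test, which called 1716 and 940 of all loci there. The averaged changes had values from -0.75 to 0.62 and a median of -0.27, beside 0.02 over all loci. The lowest was a chloroplast elongation factor (Cs5g06190, -0.75, adjusted p 0.147), and 5 of 9 values were negative. The small subunit, at -1.26, was below each of them.

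**Figure D5:**
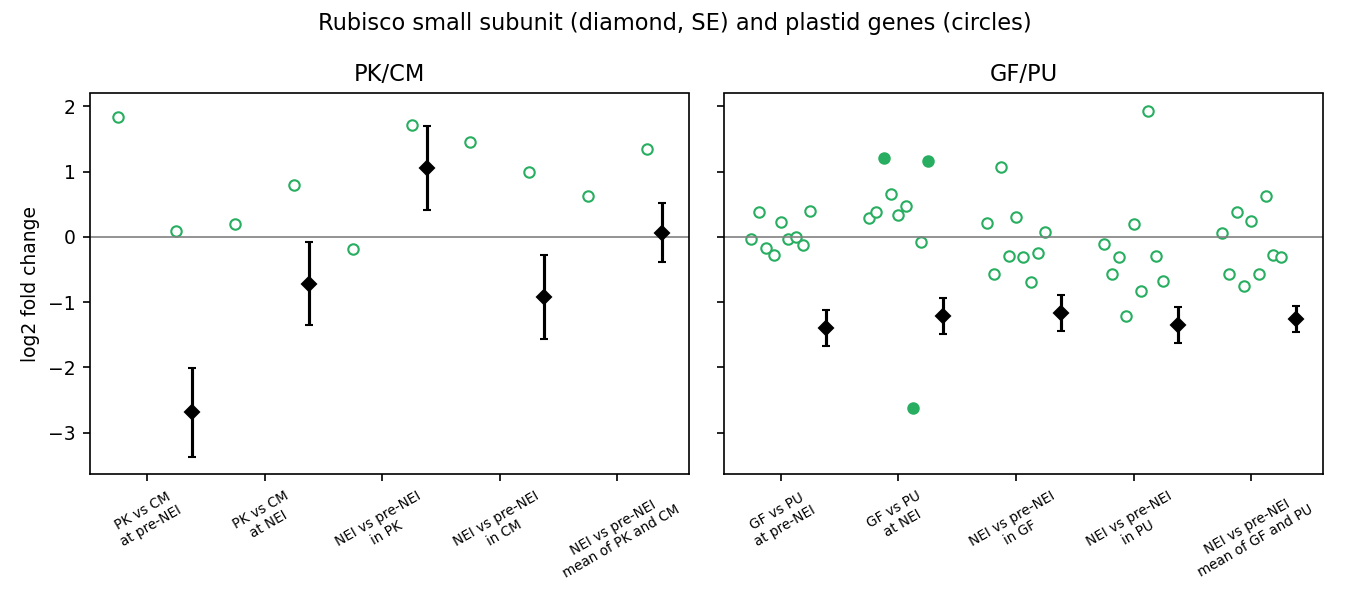
Log2 fold change of the Rubisco small subunit (black diamonds with SE) and of other plastid genes (green circles, filled where called) in the 4 comparisons of a pair and the averaged stage change. PK/CM holds 2 plastid genes and GF/PU 9. At pre-NEI the small subunit was at -2.69 and -1.40, below all the plastid genes of its panel. It was chosen for differing between cultivars, so this distance is part of the choice.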

How the data were processed

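The authors aligned reads by TopHat and Bowtie, using the clementine genome for the mandarins and that of sweet orange for the other pair, and built transcripts with Cufflinks. Genome and tool versions, the read counter and its strand setting are not given in the sources used here. The deposited tables held whole numbers per transcript and library without a stated unit, which were read as raw counts, and FPKM per group that the authors pooled over replicates. FPKM was used only for ranks and 1 alternative.

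Each locus was represented by its most counted transcript. Tests used the 18749 (PK/CM) and 19943 (GF/PU) loci that reached 1 CPM in 2 or more libraries. The 8 libraries of a pair were fitted as 4 groups with TMM in edgeR 4.0.16 (quasi-likelihood test, R 4.3.3), with Benjamini-Hochberg adjustment over all loci. The study's own test was edgeR's exact test, which was used as an alternative beside DESeq2 1.42.0, other size factors, filters and left-out libraries. SEs were derived from the log2 fold change and its F statistic. The code was tested on simulated data. Intervals of counts cover counting error only. P-values of the quasi-likelihood test rest on the spread between the 2 libraries of a group. That spread is pooled per locus over the 4 groups and drawn towards that of other loci.

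The shift from replicate 1 to 2 correlated between groups in PK/CM (0.329 to 0.560 across loci, 6 pairs). The number was therefore taken to pair libraries there, for the ratios within replicate numbers only. In GF/PU the shift correlated unevenly (0.0725 to 0.624), and the number was not taken to pair libraries. The main fits of both pairs had no term for the replicate number, so their SEs, intervals and p-values are unpaired. The replicate block was an alternative. The pairing comes from these shifts, not from the labels. The locus and gene lists were chosen with earlier results of these data known. Named loci were the small subunit, 3 loci on each side, the 5 most similar profiles per table, and 11 plastid genes selected among those the study describes. Product names are the study's. Further family members and sequences were not used here.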

Additional observations from a re-analysis of the deposited data

Results flagged for a closer look

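The fitted stage changes of the Rubisco small subunit had opposite signs in the mandarins. From pre-NEI to NEI the log2 fold change was 1.052 ± 0.64 (SE) in PK and -0.923 ± 0.64 in CM. Both replicate numbers were above in PK and both below in CM. The sizes depended on single libraries, with 0.19 in PK without its NEI replicate 2 and -0.25 in CM without its pre-NEI replicate 2. The difference between these changes was not tested, because it is built from the cultivar differences that chose the locus.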

How the results depend on the processing

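The directions of the 4 cultivar differences and of the 4 stage changes within a cultivar were kept under each alternative run. With libraries left out in turn the log2 values ran from -3.60 to -2.03 (PK vs CM at pre-NEI), -1.58 to -0.17 (PK vs CM at NEI), -1.63 to -1.18 (GF vs PU at pre-NEI), -1.54 to -0.996 (GF vs PU at NEI), 0.19 to 1.96 (stage in PK), -1.37 to -0.25 (CM), -1.40 to -0.93 (GF) and -1.39 to -1.254 (PU). The averaged stage change of PK/CM ran from -0.37 to 0.52 and was -0.44 (adjusted p 1) in the exact test. That of GF/PU ran from -1.37 to -1.14 and was -1.30 in the exact test, where the call was lost. Loci called for it numbered 441 in GF/PU (1768 by DESeq2, 1396 with the replicate block, 306 by the exact test, 0 to 901 with libraries left out), and 0 in PK/CM (69 by DESeq2, 6 by the exact test). Calls in the plastid list of PK/CM went from 0 to 1 by the exact test, by DESeq2 and with the replicate block (0 to 1 with libraries left out), and those of GF/PU from 3 to between 0 and 4. Among the small subunit's averaged stage changes and the plastid genes and neighbours named in the report, the replicate block changed no other call. Fewer libraries also lower the power of the test, and other causes were not tested. The planned isoform ratios could not be computed, since each locus had 1 transcript.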

Other observations

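The first plus-strand locus beyond the small subunit was high in a single library in both genomes. XLOC_014021 (Ciclev10013705m.g, 15862 bp away) had 311 normalised CPM in CM at NEI replicate 1 and 3.12 to 20.6 in the other 7 libraries of PK/CM. XLOC_012063 (Cs6g18700, 16530 bp away) had 136 normalised CPM in PU at NEI replicate 2 and 4.49 to 26.99 in the other 7 libraries of GF/PU. Neither was called between cultivars or stages by edgeR's quasi-likelihood test in the main fits, although other tests called them. Between GF and PU at NEI, the log2 value of XLOC_012063 was -3.11 without PU at NEI replicate 1 and 0.03 without PU at NEI replicate 2. XLOC_014021 was called between stages in CM by DESeq2 (adjusted p 0.0118) and the exact test (0.0370). XLOC_012063 was called between GF and PU at NEI by both (0.0302 and 0.0251) and for the averaged stage change by DESeq2 (0.0255). Whether these 2 loci are the same gene was not examined.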
